A study of Mus musculus with 2 samples.

Results

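The deepest RNA signal of the deposited tracks lay in introns of 3 genes, *Il31ra*, *Jarid2* and *Atf2*, out of 1718 annotated genes that lay wholly inside the stretches where the tracks held signal. The genes were selected on measured depth: each holds an intronic locus of under 500 bp whose depth exceeded every other base of the tracks. Depth, width and strand of these loci are therefore descriptions and carry no test. The *Jarid2* locus held 2 separate maxima, so the 3 loci are described as 4 stacks, named Il31ra, Jarid2 left, Jarid2 right and Atf2, with left and right as on the mm9 map. A narrow deep locus was defined as a maximum of at least 1000 scaled depth that fell below 10% of its peak within 500 bp, and there were 248 of these in JXO and 149 in OXJ. Short exons also met this definition: 235 in JXO and 137 in OXJ overlapped annotated exons. In each library 8 were intronic, and 7 of these were the loci of the 3 genes, counted on either strand.

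The libraries were made from female mouse embryo fibroblasts (MEFs), primary connective tissue cells, derived from embryos at 13.5 days post coitum. JXO MEFs had a JF1 mother and a father of the transgenic OG2 line, and OXJ MEFs came from the reciprocal mating. OG2 mice carry a green fluorescent protein transgene under *Oct4* sequences. Each cross was represented by 1 library, so no difference between JXO and OXJ has a replicate check, and cross, embryo and library preparation cannot be told apart. Total RNA had been treated to remove ribosomal RNA and was sequenced with the strand of origin kept. One read was worth 0.652 of scaled depth in JXO and 0.579 in OXJ, which corresponds to 76712608 and 86369632 aligned reads, of which 7.61% and 6.70% lay in the deposited stretches. Of the fibroblast markers listed, 3 of 15 lay inside these stretches, and the collagen gene *Col1a2* had an exon level of 583 in JXO and 388 in OXJ, the proteoglycan gene *Dcn* 22.9 and 25.9, and *Lum* 18.9 and 15.5. No listed marker of blood, endothelial, epithelial or neural cells lay inside them, so those cell types were not checked here.

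*Il31ra* encodes the receptor chain that binds interleukin 31, a cytokine of itch and skin inflammation, and signals through JAK and STAT proteins. *Jarid2* encodes a DNA-binding partner of Polycomb repressive complex PRC2, which methylates histone H3 on lysine 27. *Atf2* encodes a leucine zipper transcription factor that is activated by the stress kinases JNK and p38. Ribosomal RNA is made from long arrays of repeated genes and is the bulk of the RNA in a cell, and fragments of ribosomal sequence are scattered over mammalian chromosomes, many of them in introns.

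The sequences of the 4 stacks are given because what they share was not used to choose the loci. They were read from mm9 over the bases at or above 10% of the peak and are written in the direction of the RNA, with the 100 bases at or above 50% of the peak in OXJ in capitals. The Il31ra stack lay at chr13:113368386-113368550 on the (−) strand, Jarid2 left at chr13:44964940-44965054 (−), Jarid2 right at chr13:44965266-44965389 (−) and Atf2 at chr2:73705939-73706084 (+).
Il31ra: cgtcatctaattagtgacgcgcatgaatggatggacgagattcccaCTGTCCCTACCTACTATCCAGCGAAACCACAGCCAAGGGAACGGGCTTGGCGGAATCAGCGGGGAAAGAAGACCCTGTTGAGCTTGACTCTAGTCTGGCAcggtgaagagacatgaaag
Jarid2 left: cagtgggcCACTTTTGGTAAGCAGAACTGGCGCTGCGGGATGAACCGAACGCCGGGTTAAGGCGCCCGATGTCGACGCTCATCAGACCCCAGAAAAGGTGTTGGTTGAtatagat
Jarid2 right: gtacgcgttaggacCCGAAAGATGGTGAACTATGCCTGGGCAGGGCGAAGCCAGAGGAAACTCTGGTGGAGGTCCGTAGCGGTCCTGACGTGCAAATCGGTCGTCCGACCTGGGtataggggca
Atf2: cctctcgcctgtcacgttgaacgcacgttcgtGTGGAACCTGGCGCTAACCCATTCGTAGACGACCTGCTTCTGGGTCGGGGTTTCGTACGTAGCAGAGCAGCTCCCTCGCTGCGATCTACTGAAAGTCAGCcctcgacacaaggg
No annotated gene other than the host overlapped any of the 4 stacks. From general knowledge, the letters of all 4 are recognisable as parts of large-subunit ribosomal RNA in its sense direction. No sequence of that RNA was used here, so this identity was not tested.

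The 4 stacks were richer in G and C than the introns around them. The G and C content of the capital letters was 56% for Il31ra, 57% for Jarid2 left, 61% for Jarid2 right and 58% for Atf2. Over windows of 100 bases in the introns of the same host, the median was 43% in *Il31ra*, 41% in *Jarid2* and 35% in *Atf2*. Few windows were as rich: 20 of 532 in *Il31ra* (3.76%), 63 and 26 of 1807 in *Jarid2* for the left and right stack (3.49% and 1.44%), and 13 of 662 in *Atf2* (1.96%).

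All 3 loci matched one and the same stretch of sequence at 2 other places of the genome, in a fixed order. A search of mm9 with each whole locus found 83 groups of matches outside the loci. Matches were grouped only when they lay near each other on the same strand, so loci matching in opposite directions would not be joined. In 2 of the groups all 3 loci matched together, and no group held just 2. At chr14:20110261-20112272 on the (+) strand, the loci followed each other as *Jarid2*, *Il31ra* and *Atf2* within 2012 bp, with 511 bp between the first pair and 747 bp between the second. At chr9:3257313-3259376 on the (−) strand the order was the same over 2064 bp, with gaps of 504 and 749 bp. The hosts thus lie on 2 chromosomes and both strands, whereas their loci, read in the direction of their RNA, had the same order and nearly equal spacing in both places. Identity at these places was moderate, at most 81.2% for *Jarid2*, 79.6% for *Il31ra* and 80.2% for *Atf2*. The annotation lists a predicted miRNA at either place, AC165092.1 and AC140318.1, and neither place lay inside the stretches with signal, so their depth was not measured.

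**Figure D1:**
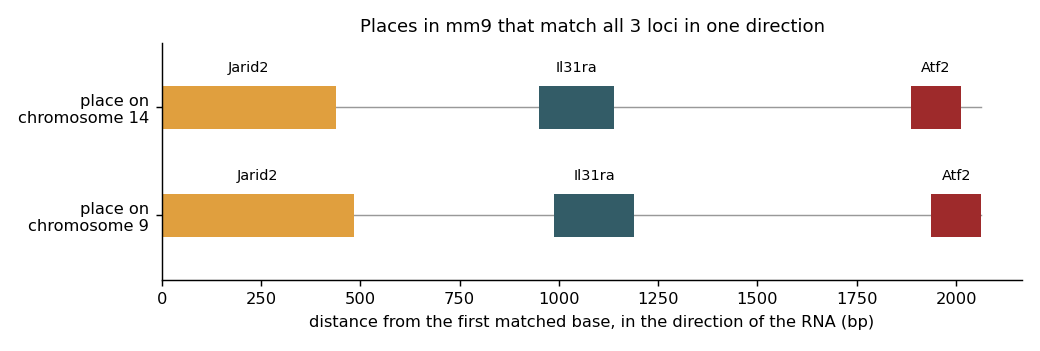
Bars mark the parts of 2 places in mm9 that matched the *Jarid2*, *Il31ra* and *Atf2* loci, with distance in bp from the first matched base in the direction of the RNA on the x axis. The order is the same in both places, which span 2012 and 2064 bp.

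Closer copies of single stacks were spread over many chromosomes. Matches of at least 90% identity over at least 80% of the stack numbered 17 on 12 chromosomes for Il31ra, 6 on 6 for Jarid2 left, 11 on 8 for Jarid2 right and 7 on 6 for Atf2. Of these, 10, 2, 8 and 4 annotated genes overlapped a copy of the respective stack, and the overlap touched an exon only for Jarid2 right, in the pseudogenes *Gm12563* and *Gm15662*. The nearest copy of the capital letters differed by 1 edit for Il31ra, 8 for Jarid2 left and 3 for Atf2. For Jarid2 right a copy in *Sspn*, which encodes the muscle membrane protein sarcospan, held the same letters with 0 edits.

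Windows of 100 bases were unique in 3 of the stacks when matched exactly. All 66 windows of one read length in the Il31ra stack matched the genome once, as did all 16 of Jarid2 left and all 47 of Atf2. In Jarid2 right 8 of 25 windows matched once, 6 matched 2 places and the most was 4 places. The alignment had kept reads with up to 10 positions, so the depth of Jarid2 right cannot be assigned to this place alone. For the other 3 stacks, a single match counts places in mm9 only. No ribosomal RNA sequence was searched beside mm9, so the origin of their reads was not tested either. With up to 2 edits allowed, 6 copies of the capital letters of Il31ra and 4 of Jarid2 right came within reach, and 0 of Jarid2 left and Atf2. Of all copies counted above, a single one lay inside the stretches, an Atf2 copy at chr1:169270352-169270491 of 95.7% identity, and it had 0 reads on either strand in either library. No Atf2 copy came within 2 edits of the capital letters, so these 0 reads do not show whether closer copies hold signal.

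Each locus lay deep in an intron of its host. In *Il31ra* (ENSMUSG00000050377.6, chr13:113313018-113370870, (−) strand) it was the first intron of 16, of 14.7 kb, and the stack stood 2.29 kb after the upstream exon and 12.3 kb before the next. Its RNA strand was that of the gene. In *Jarid2* (ENSMUSG00000038518.8, chr13:44824843-45017012, (+) strand) it was intron 9 of 21, of 25.9 kb, with the stacks 21.1 and 21.5 kb after the upstream exon. In *Atf2* (ENSMUSG00000027104.11, chr2:73654566-73730696, (−) strand) it was intron 4 of 15, of 7.32 kb, 2.595 kb after the upstream exon. The *Jarid2* and *Atf2* stacks were antisense to their hosts.

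The Il31ra stack was the deepest in both libraries. Its peak held 485448 reads in JXO and 972249 in OXJ, a scaled depth of 316407 and 562842, at the same base, 113368463. The Jarid2 left stack peaked at 228654 reads in JXO and 417328 in OXJ, or 149033 and 241594 of scaled depth. Jarid2 right peaked at 196419 and 431214 reads, or 128023 and 249633, so that the left stack had the higher peak in JXO and the right one in OXJ, while the mean depth over the stack was higher on the left in both libraries. The Atf2 stack peaked at base 73705991 in both libraries, with 49918 reads in JXO and 98022 in OXJ, or 32536 and 56746 of scaled depth. The deepest base elsewhere, of any width, lay in *Actb*, the gene of beta-actin, with a scaled depth of 20523 in JXO and 15311 in OXJ. The peak of Atf2, the lowest of the loci, was 1.59 times that base in JXO and 3.71 times in OXJ, and the peak of Il31ra was 15.4 and 36.8 times it.

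**Figure D2:**
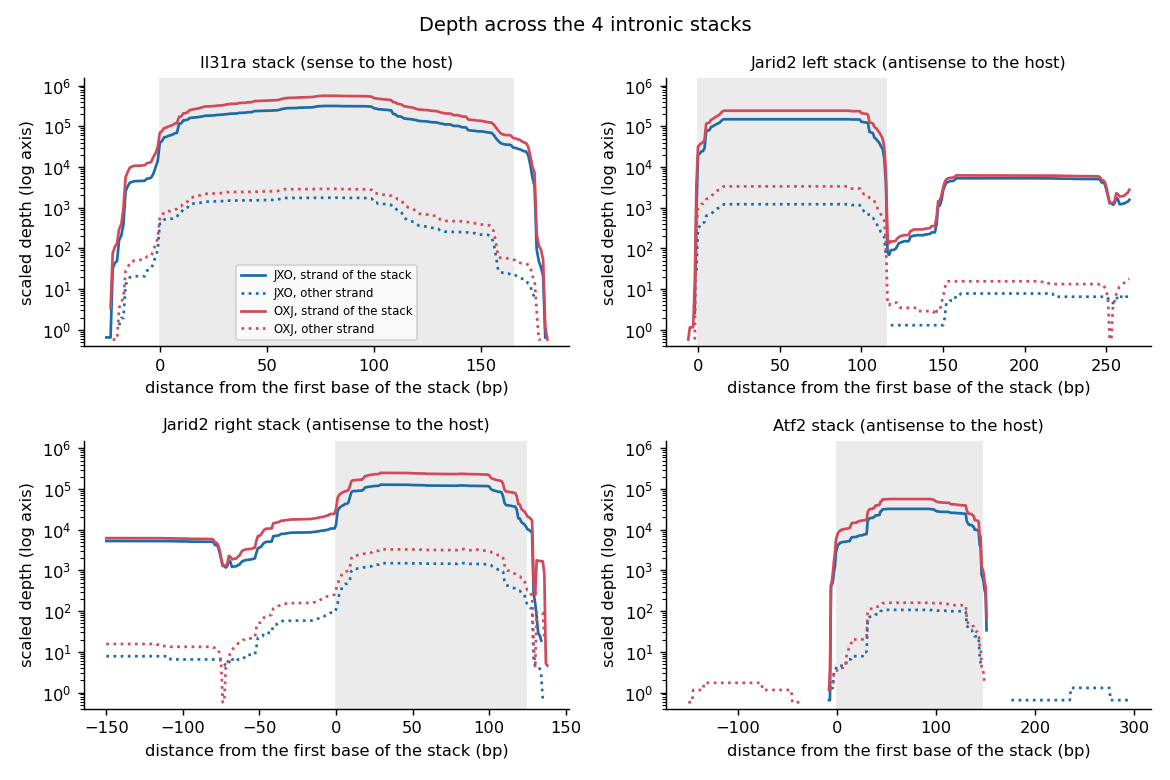
Scaled depth on a log axis against distance in bp from the first base of each stack, with JXO in blue, OXJ in red, the strand of the stack as solid and the other strand as dotted lines. Grey marks the bases at or above 10% of the peak, 165, 115, 124 and 146 bp wide, and in each panel OXJ runs above JXO at the peak.

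The stacks were narrow, with sharp edges. At 10% of the peak the width was 165 bp for Il31ra, 115 bp for Jarid2 left, 124 bp for Jarid2 right and 146 bp for Atf2, with the same bounds in both libraries. At 50% of the peak each stack was 100 bp wide in both libraries, exactly one read length. Ungapped reads of 100 bases that all cross one base give this width by arithmetic, so it is no separate trait. Coverage around the Il31ra stack ended after 206 bp in JXO and 205 bp in OXJ, and around Atf2 after 160 bp in both. The *Jarid2* stacks were joined into one run of 463 bp in JXO and 471 bp in OXJ by lower coverage over the 211 bp between them. Depth there ranged from 106 to 16489 reads in JXO, with a median of 7983, and from 231 to 42588 in OXJ, with a median of 10736, a mean scaled depth of 4589 and 7346. Within 1 kb on either side of the *Il31ra* locus the mean scaled depth on the same strand was 3.13 in JXO and 3.47 in OXJ. On the strand of the stacks it was 0 beside the *Jarid2* and *Atf2* loci in both libraries, where 0 reads allow a depth of up to 0.240 in JXO and 0.214 in OXJ (95% exact Poisson limit on pairs of reads). Here and below, intervals cover counting error only, since reads amplified by PCR are not independent molecules.

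In *Il31ra* and *Atf2* almost every read of the locus crossed its deepest base. The depth steps resolved into whole reads of 100 bases in Il31ra and Atf2, with 485618 reads from 110 left-end positions at Il31ra in JXO and 972577 from 111 in OXJ. Of these, 99.97% crossed the deepest base in both libraries. At Atf2, 49918 reads from 60 positions in JXO and 98022 from 61 in OXJ all crossed it.

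The 5 largest steps up in depth stood at the same positions in both crosses, and they made up the smallest share of the peak in Il31ra. The largest step up in Il31ra stood at base 113368395 and held 14.6% of the peak in JXO and 8.97% in OXJ. In Jarid2 left it stood at 44964945, with 31.9% and 28.5%, in Jarid2 right at 44965276, with 17.1% and 16.05%, and in Atf2 at 73705970, with 26.1% and 16.1%. The 5 largest steps together made up 38.4% of the Il31ra peak in JXO and 31.1% in OXJ, 71.5% and 66.8% of Jarid2 left, 56.5% and 51.6% of Jarid2 right, and 61.5% and 53.8% of Atf2. In each of the 4 stacks the 5 largest positions of JXO were also the 5 largest of OXJ. Steps of at least 1% of the peak stood at 27 positions in JXO and 30 in OXJ in Il31ra, 26 of them in both, and at 19 in either library in Atf2, 18 of them in both. Each of these steps up in Il31ra and Atf2 was followed 100 bases later by a step down equal within 5%. In Jarid2 left this held for 14 of 15 steps in JXO and 14 of 17 in OXJ, which carried 86.9% and 85.2% of the reads stepping up. Depth at the *Jarid2* locus did not resolve into whole ungapped reads of 100 bases, so its steps cannot all be taken as read ends.

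**Figure D3:**
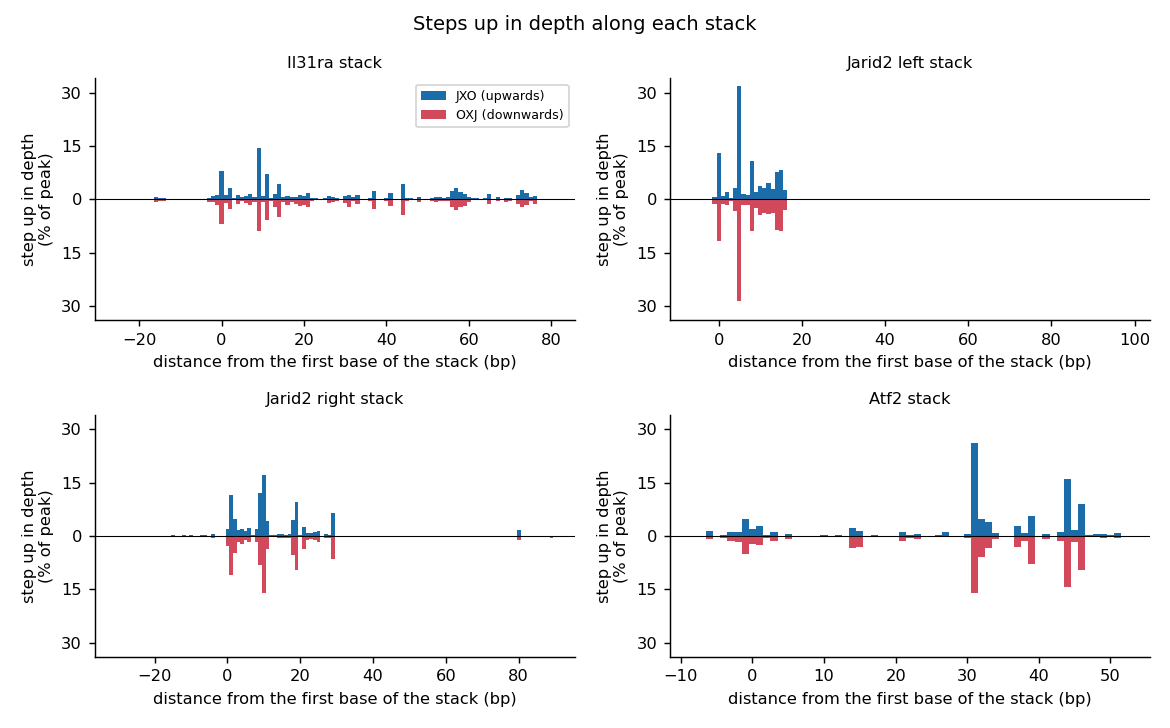
Height of each step up in depth, in percent of the peak, against distance in bp from the first base of the stack, with JXO drawn upwards and OXJ downwards. The highest bars stand at the same positions in both libraries, and the highest of all is in Jarid2 left, at 31.9% in JXO and 28.5% in OXJ.

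Nearly all signal of a stack lay on one strand. The share on that strand was 99.44% in JXO (95% exact binomial interval on pairs of reads, 99.41 to 99.47) and 99.48% in OXJ (99.46 to 99.50) for Il31ra. It was 99.19% (99.14 to 99.24) and 98.64% (98.59 to 98.69) for Jarid2 left, 98.82% and 98.67% for Jarid2 right, and 99.67% and 99.72% for Atf2. The other strand thus held between 0.283% and 1.36% of the bases. Over the exons of protein-coding genes with at least 1000 sense reads and no overlapping gene, the median share on the other strand was 2.58% in JXO (173 genes) and 3.35% in OXJ (156 genes), higher than in any of the stacks. The weak signal opposite to each stack was 100 bp wide at 50% of its own peak for all 4 stacks and both libraries. As for the stacks, reads that all cross one base give this width by arithmetic. At 10% of its peak it was 156 bp wide opposite Il31ra in both libraries, against 165 bp for the stack. It peaked at 2710 and 5029 reads opposite Il31ra, 1871 and 5794 opposite Jarid2 left, 2321 and 5751 opposite Jarid2 right, and 165 and 278 opposite Atf2, in JXO and OXJ.

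The exons of *Il31ra* were close to silent beside its locus. Over 17 exons of 3665 bp the sense strand held the bases of 19.0 reads in JXO and 72.2 in OXJ, a mean scaled depth of 0.339 (95% exact Poisson interval 0.159 to 0.632) and 1.14 (0.799 to 1.58). Signal was present in 10 exons in JXO, the highest at 1.13, and in 16 in OXJ, the highest at 3.39. The other introns had 0.0199 in JXO and 0.0651 in OXJ, and 5 and 11 of 15 introns held any signal. The mean depth of the stack was 189856 in JXO and 337569 in OXJ. It exceeded the exon level 560697-fold in JXO (290247 to 1113130) and 296204-fold in OXJ (214398 to 423801). The stack lay on the sense strand, so a sum over the gene body would count it: 99.97% of the sense reads over *Il31ra* lay in the locus in both libraries, and the sense depth over the gene body, 547 in JXO and 973 in OXJ, was 0.149 and 0.252 when the locus was left out. Beyond 1 kb from the locus the rest of the first intron held the bases of 3.89 sense reads in JXO and 13 in OXJ, a level of 0.0202 (0.00234 to 0.0743) and 0.0601 (0.0231 to 0.127), intervals that hold the level of the other introns.

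*Jarid2* was transcribed in both libraries at a modest level. Its 22 exons of 9715 bp had a mean sense depth of 10.1 in JXO (9.42 to 10.9) and 8.07 in OXJ (7.47 to 8.70), with a median over exons of 13.7 and 11.8 and a highest exon of 38.8 and 29.6. The other introns stood at 0.589 and 0.50 on the sense strand. Jarid2 left had a mean depth of 129451 in JXO and 209662 in OXJ, 12777 times (11895 to 13744) and 25984 times (24097 to 28063) the exon level. Jarid2 right had 100048 and 194279, 9875 and 24077 times the exon level. Both stacks were antisense, yet their weak opposite strand was large against the gene itself. Of 7251 sense reads over the *Jarid2* gene body in JXO 58.0% lay in the locus, and of 14434 in OXJ 80.04% did. Without the locus 3043 and 2881 sense reads remained. Antisense signal elsewhere in the gene was low, with 128 reads in JXO and 135 in OXJ over the whole body outside the locus.

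*Atf2* had the highest exon level of the hosts. Its 16 exons of 8921 bp had a mean sense depth of 16.7 in JXO (15.8 to 17.7) and 11.4 in OXJ (10.7 to 12.2), all 16 held signal in both libraries, and the other introns stood at 1.55 and 1.05. The stack had a mean depth of 22223 in JXO and 38757 in OXJ, 1329 times (1252 to 1411) and 3394 times (3175 to 3632) the exon level. Of the sense reads over the *Atf2* gene body, 4.26% in JXO and 8.92% in OXJ lay in the locus. With both strands summed the locus held 92.9% and 97.1% of the reads over the gene, and outside it the antisense strand held 38.0 and 43.0 reads. In the rest of the intron that holds the stack the sense level was 0.522 in JXO and 0.243 in OXJ, below the pooled level of the other introns in both libraries. The lowest single intron among the others stood at 0.444 and 0.179, so a level this low was not particular to that intron.

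**Figure D4:**
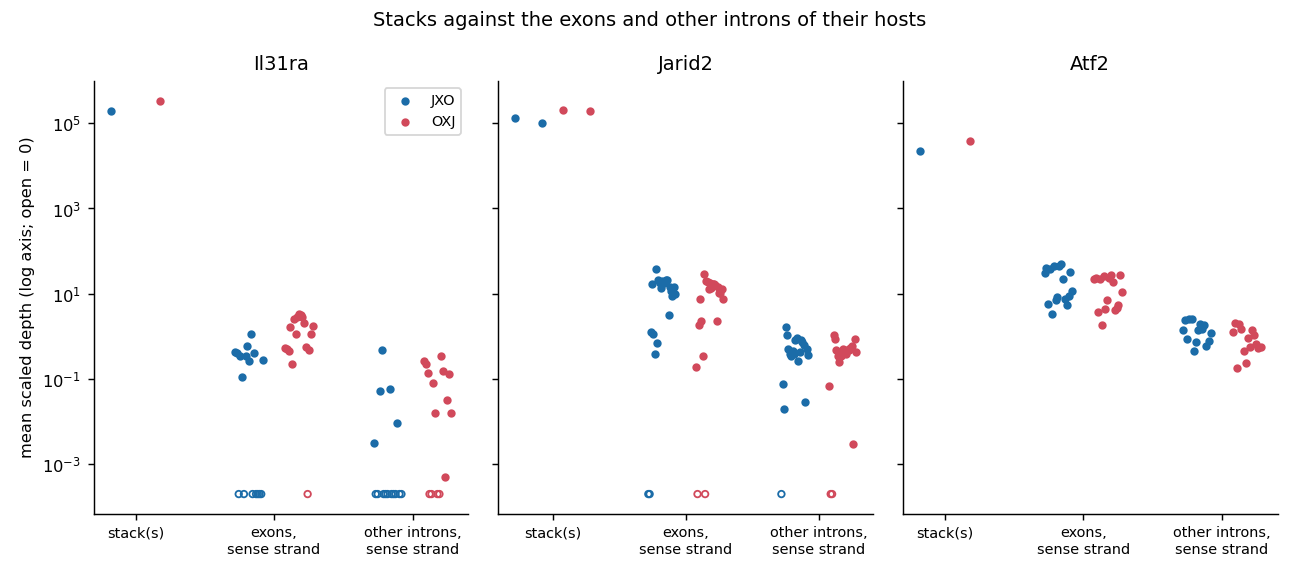
Mean scaled depth on a log axis for the stacks, each exon and each other intron of *Il31ra*, *Jarid2* and *Atf2*, with JXO in blue and OXJ in red and values of 0 as open points at the bottom. The stacks lie above every exon of their host, whose highest values are 1.13 and 3.39, 38.8 and 29.6, and 49.3 and 27.7 in JXO and OXJ.

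The 4 stacks were deeper in OXJ than in JXO under each scaling, whereas the exons of *Jarid2* and *Atf2* were higher in JXO as deposited and *Jarid2* turned under others. The log2 ratio of JXO over OXJ, from the depth as deposited, was -0.83 for Il31ra (-0.84 to -0.82), -0.70 for Jarid2 left (-0.71 to -0.69), -0.96 for Jarid2 right (-0.97 to -0.95) and -0.80 for Atf2 (-0.82 to -0.78). Among 242 other narrow deep loci 11, or 4.55%, were higher in OXJ, their median ratio was 0.66, and the lowest was -0.63. Outside the member loci, 241 met the definition in JXO and 142 in OXJ, so many entered through JXO only. This selection moves the share and the median toward JXO, so they are no unbiased background for the stacks. Most of the narrow deep loci overlapped exons, often several of the same gene, so the 242 are not independent. The ratio of exon levels was -1.75 for *Il31ra* (-2.85 to -0.64), from 19.0 and 72.2 reads, 0.33 for *Jarid2* (0.18 to 0.48), which turned to -0.18 without the 4 stacks in the totals, and 0.55 for *Atf2* (0.42 to 0.68). Of 792 genes with at least 20 exon reads, 17, or 2.15%, were at least 2-fold higher in OXJ, *Il31ra* among them, and 75, or 9.47%, were at least 2-fold higher in JXO, and the median was 0.46. The exon ratios of *Jarid2* and *Atf2* thus stood close to the median of all genes. These values depend on the scaling of the libraries: without the 4 stacks in the totals the median of all genes was -0.04, the exon ratio of *Atf2* was 0.05, and the 4 stacks ranged from -1.46 to -1.20. The median of the other narrow deep loci was then 0.15.

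**Figure D5:**
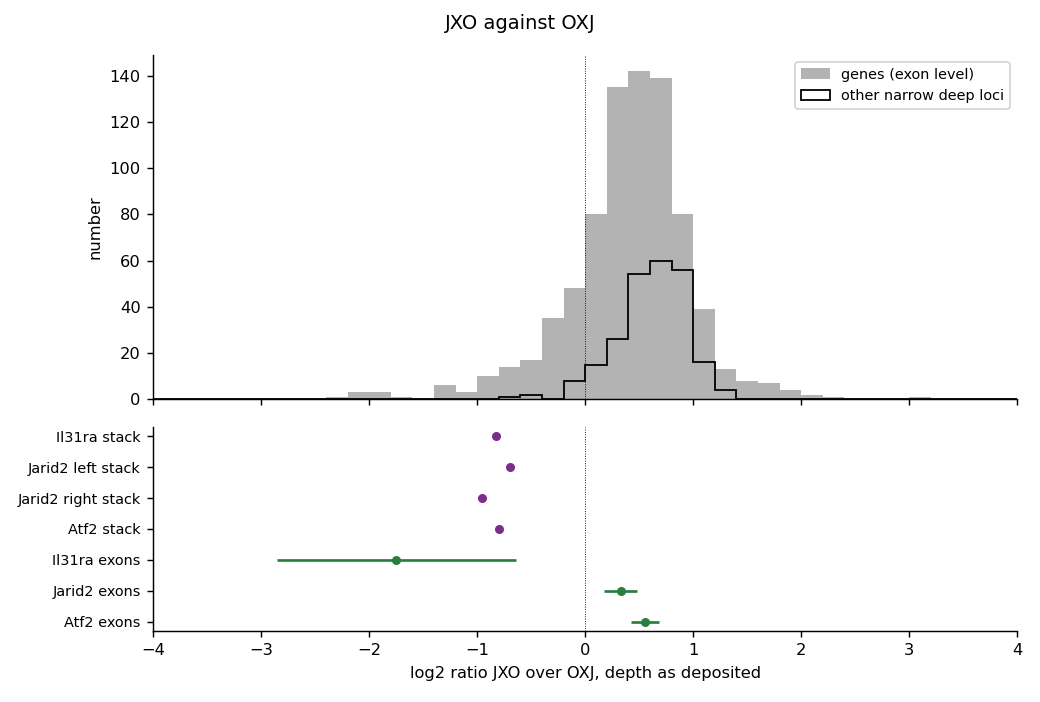
The upper panel counts genes (grey) and narrow deep loci other than the stacks (line) by the log2 ratio of JXO over OXJ of the depth as deposited, and the lower panel gives the ratio of each stack (purple) and of the exons of each host (green) with 95% intervals that cover counting error only. The stacks lie between -0.96 and -0.70, below the median of 0.46 for all genes.

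The proportions among the 4 stacks moved by at most 0.26 on the log2 scale between the crosses. The Il31ra stack was 8.54 times as deep on average as the Atf2 stack in JXO and 8.71 times in OXJ. It was 1.47 and 1.61 times as deep as Jarid2 left and 1.90 and 1.74 times as deep as Jarid2 right. Between the *Jarid2* stacks the ratio of left to right was 1.29 in JXO and 1.08 in OXJ, the largest shift among the 6 pairs. The 4 stacks together took 16.3% of all read bases in the JXO tracks and 32.7% in OXJ, or 1.24% and 2.19% of all aligned reads.

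Narrow intronic loci of other hosts were shallower. Outside the members, the hosts whose narrow intronic locus stood highest over their exons in both libraries were *Serinc4* (1799-fold in JXO and 2111-fold in OXJ), *Catsper2* (3060 and 1491), *Tecpr2* (557 and 455), *Smarcd1* (101 and 118) and *Ctcf* (21.4 and 33.8). The ratio of *Atf2* was below those of *Serinc4* and *Catsper2* in JXO and above both in OXJ. The exon levels of *Serinc4* and *Catsper2* were 0.375 to 0.525. The mean depth of their loci, 782 to 1170, was far below the 22223 and 38757 of the Atf2 stack. At 4 of these 5 loci the locus overlapped exons of other genes: *Serf2* and the predicted miRNA AL845466.1 for *Serinc4*, *Pdia3* for *Catsper2*, *Gm17241* for *Smarcd1* and *Gm5915* for *Ctcf*. The exception was *Tecpr2*, where no other gene is annotated and the locus was 464 bp wide at 10% and 329 and 290 bp wide at 50% of the peak. Of the 5, *Ctcf* came nearest to one read length at 50% of the peak, with 106 bp in JXO and 109 bp in OXJ. Lower in the ranking, named after its values were seen, the intronic locus of *Rps3* at the snoRNA *Snord15a* was 102 and 101 bp wide, at 1.03 and 1.74 times the exon level. Over all narrow deep loci outside the members, 4 of 241 in JXO and 3 of 142 in OXJ had a width of exactly 100 bp at 50% of the peak. This width follows wherever ungapped reads all cross one base, and 235 and 137 of these loci overlapped exons.

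The genes next to the hosts showed no comparable depth over their exons. *Il6st*, which encodes the gp130 chain shared by receptors of the interleukin 6 family, lies 15.9 kb from *Il31ra* and had an exon level of 125 in JXO and 121 in OXJ. On the other side, 17.7 kb away, *Ddx4*, a germ cell RNA helicase, had 0.980 and 4.14, a log2 ratio of -2.08, higher in OXJ as were the exons of *Il31ra*. *Dtnbp1*, which encodes dysbindin, lies 0.441 kb from the right end of *Jarid2* and stood at 108 and 90.3. *Gm5083*, the next gene on the left of *Jarid2*, was not measured here. Next to *Atf2*, the pseudogene *Gm13640* had 0 reads in both libraries and *Gm10822*, a long noncoding RNA, had 0 in JXO and 2.36 in OXJ.

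Few genes of the hosts' pathways were measured, too few to read their counts against the 2.15% and 9.47% of all genes that passed 2-fold in either direction. Of 26 listed genes of interleukin 31 and interleukin 6 signalling 2 lay inside the stretches, *Il31ra* and *Il6st*, and *Il31ra* alone passed 2-fold. Of 30 Polycomb genes 3 did, and none passed 2-fold: *Jarid2*, *Ezh2*, the PRC2 methyltransferase, at 56.9 in JXO and 32.5 in OXJ, and its paralog *Ezh1* at 3.42 and 2.81. Their median log2 ratio was 0.33, beside 0.46 over all genes. Of 31 ATF, CREB and AP-1 genes and kinases 4 did, none past 2-fold and with a median of 0.48: *Jun* at 166 and 135, *Atf1* at 34.7 and 26.2, *Atf2*, and *Crem* at 7.25 and 4.17. None of the 27 names listed for abundant structured RNAs was found in the annotation used.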

How the data were processed

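Total RNA of JXO and OXJ MEFs was depleted of ribosomal RNA and sequenced in strand-specific libraries. The submitters' processing notes name CASAVA 1.9, TopHat 1.2.0 and the mm9 build, and the authors kept reads with up to 10 positions. The authors scaled depth to 50000000 aligned reads and deposited it per base as log2 of depth plus 1, in 4 tracks, 1 per library and direction. The tracks named forward hold RNA of the (−) strand. The log2 values were turned back, and the smallest nonzero depth was taken as 1 read; all depths were whole reads within a relative deviation of 3.61e-14. Genes were taken from GENCODE M1 on mm9, and stretches were covered bases joined over gaps of up to 50 kb. Exon levels are mean scaled depth over merged exons, with intervals on pairs of reads (200 bases) at 95%. With 1 library per cross no test was run. Sequences were compared with BLAST+ 2.17.0 and edlib 1.3.9.post1, using Python 3.11.15 with SciPy 1.17.1. Read left ends, gene ratios with their intervals and the calling of narrow deep loci were tested on simulated data. The sequence searches and the other measures were not. Named genes were the members, genes at the loci or their best matches, direct neighbours, the 5 hosts ranked by the smaller ratio of locus to exon depth with at least 10 exon reads in each library, and up to 4 genes per list with the highest level; *Actb*, *Gm12563* and *Gm15662* were named after their values were seen. The members and lists were chosen with earlier results of these data known.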

Additional observations from a re-analysis of the deposited data

How the results depend on the processing

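With 1 library per cross and single stretches of the genome deposited, neither biological spread nor depth at most copies was measured. Direction was kept for the ratios of stack to exon depth and for the ratios of the stacks between crosses under all alternatives run. On the mean of log2 values, stack over exon depth in JXO and OXJ was 23070 and 45911 for Jarid2 left, 17428 and 41876 for Jarid2 right, and 2500 and 6171 for Atf2. With bounds at 50% of the peak it was 14112 and 28614, 11443 and 27730, and 1730 and 4342. With bounds by unbroken coverage it was 6036 and 13121 for both Jarid2 stacks, which are then one run, and 1216 and 3106 for Atf2. The *Il31ra* values stayed within their intervals under these alternatives. No exon of the hosts overlapped an exon of another gene, so leaving out such exons was void.

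For Il31ra, Jarid2 left, Jarid2 right and Atf2, the log2 ratio of JXO over OXJ was -1.01, -0.88, -1.14 and -0.99 with equal kept totals, and -1.31, -1.18, -1.44 and -1.29 when narrow deep loci were left out of the totals. Without the 4 stacks in the totals, a scaling chosen after seeing the data, it was -1.33, -1.20, -1.46 and -1.31, and on the mean of log2 values Jarid2 right moved to -0.97 and Atf2 to -0.85. The exon ratio of *Jarid2* was 0.14 with equal kept totals, and it reversed to -0.15 without narrow deep loci and -0.18 without the 4 stacks. That of *Atf2* was 0.37, 0.068 and 0.047. Widths at 50% of the peak were 100 bp for all stacks, and by unbroken coverage 206 bp in JXO and 205 bp in OXJ for Il31ra, 463 and 471 bp for both *Jarid2* stacks and 160 bp for Atf2. Within 500 bp of the deepest base the strand share in JXO was 99.0401% for Jarid2 left and 99.0402% for Jarid2 right. Narrow deep loci numbered 10 in JXO and 9 in OXJ at a peak of at least 10000, and 706 and 487 at 300. No paired analysis was possible because each cross had 1 library.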
